A study of Mus musculus with 4 samples.

Results

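The heat shock transcription factor gene Hsf1 and 9 genes of cytosolic heat shock proteins and their partners were examined in mouse embryonic stem cells with and without the chromatin remodeler gene Chd1. The members were Hsf1, Hsp90aa1, Hsp90ab1, Hspa8, Hspa4, Hsph1, Dnaja1, Dnajb1, Hspb1 and Stip1. Each was chosen by its gene symbol, and each matched 1 locus in the table of set 1 and 1 in the table of set 2. All 10 were among the 11728 genes named once in both tables, and all 10 reached the mean of 1 FPKM that 10261 genes reached and that was required for testing. FPKM counts sequenced fragments of a gene, scaled to its transcript length and to the depth of the library.

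Embryonic stem cells are the cultured counterpart of the pluripotent cells of the early embryo. The cells of every group carried Rosa26CreER, a Cre recombinase that tamoxifen switches on, together with 1 floxed and 1 null allele of Chd1 (Chd1fl/-). Control cells received ethanol and so kept 1 functional allele, while the Chd1-/- cells, called Chd1-null here, received 1 µM tamoxifen for 48 to 72 h. Both were then expanded for 3 to 5 passages in serum with LIF, and RNA of equal numbers of viable cells was mixed with 92 synthetic ERCC transcripts. The labels call the data normalised to cell number, but how the ERCC transcripts entered the deposited values is not given in the sources used here, so it is not established that these values are per cell. The labels name 2 independently derived lines and 2 sets, without tying a set to a line. Each set has 1 control and 1 Chd1-null library, which makes 2 pairs. Nothing in the labels describes repeat cultures of 1 line, so the only replication is between these sets. A p-value here rests on the spread between sets that genes of similar level share, and not on a gene's own spread. In bulk RNA, less RNA per cell and fewer cells with the transcript cannot be told apart.

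Hsf1 encodes the main transcription factor of the heat shock response. When unfolded proteins occupy the chaperones that hold it inactive, HSF1 forms trimers, binds heat shock elements, which are alternating repeats of GAA and TTC, and raises transcription of chaperone genes. HSP70 proteins bind exposed stretches of clients, J proteins deliver clients and stimulate the HSP70 ATPase, and HSP110 proteins exchange the nucleotide. HSP90 proteins take over clients that are further along in folding, with Stip1 as the bridge. Many of these genes are also transcribed strongly without stress, as in growing stem cells.

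Chd1 itself was lower in both libraries labelled Chd1-null: 27.6 FPKM (control) and 5.71 (Chd1-null) in set 1, against 17.9 and 8.52 in set 2. That is 20.7% of control in set 1, but 47.7% in set 2, where much of the signal remained. The value covers the whole gene and not the deleted stretch alone, so it is a weak check of the label of set 2. Summed over all loci of a table, FPKM came to 584520 (control) and 466994 (Chd1-null) in set 1, against 719549 and 518032 in set 2. The median tested gene was lower in Chd1-null cells, with a log2 ratio of -0.46 in set 1 and -0.33 in set 2, so each member is given on the deposited scale and against other genes. All 10 embryonic stem cell markers of a list were measured and lower in both sets, as were 72.4% of all tested genes. On the deposited scale limma called 8 of them lower (9.80% of tested genes were), with a median log2 change of -0.65. With each set's median log2 ratio taken out, 0 of the 10 passed, with Esrrb nearest (limma adjusted p = 0.0580). Some calls rest mostly on 1 set, as for Zfp42 (log2 ratios -0.073 and -1.06) and Sall4 (-0.99 and -0.24), whereas Esrrb was low in both (-1.34 and -1.11). The markers' summed FPKM was 2930 and 2162 in set 1 and 3652 and 2090 in set 2 (control, then Chd1-null). Of the fibroblast and feeder list, 7 of 10 genes were in both tables; they summed to 104 and 80.4 FPKM in set 1 and to 159 and 119 in set 2, but 3 of its 4 tested genes went opposite ways in the sets. Its sum moved with Fn1 in set 1 (42.5 to 17.7 FPKM) and with Vim in set 2 (134 to 97.5), while Dcn, not tested for its low level, was higher in both (0.213 to 1.07, 0.310 to 0.720). Its collagen genes were low, Col1a1 between 0.564 and 1.94 FPKM and Col3a1 between 0.285 and 4.07. In the primitive endoderm list 4 of 8 genes were in both tables (57.0 and 40.7 FPKM in set 1, 55.7 and 48.2 in set 2), with Gata4 between 0.116 and 0.379. In the neural list 5 of 6 were (49.4 and 31.2, then 34.6 and 28.3), with Sox1 between 0.143 and 2.69. Tubb3 carried those sums (34.0 to 15.9 FPKM in set 1, 20.9 to 10.7 in set 2), whereas Nes was higher in both sets (118% and 130% of control), and Map2, Pax6 and Sox1 were lower in set 1 and higher in set 2. The part of these marker sums in the results below was not tested.

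Of the 10 members, 9 were lower in Chd1-null cells in both sets, as were 72.4% of all tested genes. The transcripts of both cytosolic HSP90 genes, of the HSP110 gene Hsph1 and of the small heat shock protein gene Hspb1 fell. These 4 passed limma over all tested genes (adjusted p under 0.05), where 9.80% of genes were called lower, and no member was called higher (0.0682% of genes were). At an unadjusted p under 0.05 there were 6 members, against 29.2% of genes. Higher values in both sets occurred in 0 members and in 2.81% of genes, and values at least 1.5-fold lower in both sets in 2 members, the HSP90 genes, and in 10.2% of genes. The median of the 10 log2 ratios came to -0.44 for set 1 and -0.49 for set 2. Values stood at 35.4% to 105% of control in set 1 and at 58.8% to 97.4% in set 2. Both control values lay above both Chd1-null values in 7 members, against 52.6% of tested genes. That count sets levels across 2 tables that may have been scaled separately. The calls rest on a spread that limma shares among genes of similar level. With one common prior variance, or with the set not fitted as a block, 0 of the 4 passed (limma adjusted p from 0.289 to 0.299 and 0.461; 3 and 4 members at an unadjusted p under 0.05).

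**Figure D1:**
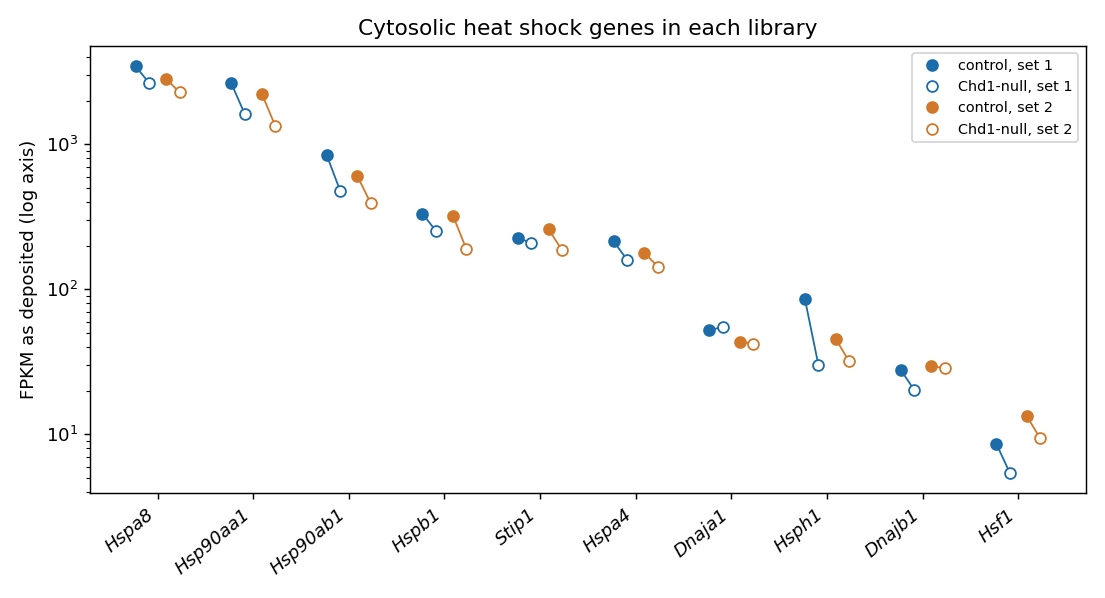
FPKM as deposited (vertical log axis) of the 10 genes in each library, ordered by mean level; filled points are control and open points Chd1-null libraries, joined within a set (blue, set 1; orange, set 2). Hspa8 and Hsp90aa1 lie at or above 1345 FPKM in every library, and the Dnaja1 points of a pair are nearly level.

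The members spanned a 305-fold range of mean FPKM, a value per transcript length. By mean level the order was Hspa8, Hsp90aa1, Hsp90ab1, Hspb1, Stip1, Hspa4, Dnaja1, Hsph1, Dnajb1 and Hsf1. Hspb1, Stip1 and Hspa4 kept this order in all 4 libraries, though Hspb1 and Stip1 were close in the Chd1-null library of set 2, at 189 and 186 FPKM. Dnaja1 and Hsph1 exchanged places between the groups: Hsph1 was above Dnaja1 in both control libraries and below it in both Chd1-null libraries. Hspa8, Hsp90aa1 and Hsp90ab1 together made up 88.0% (control) and 86.7% (Chd1-null) of the members' summed FPKM in set 1, against 86.4% and 86.4% in set 2. The sum itself was 7884 FPKM (control) and 5501 (Chd1-null) in set 1, against 6555 and 4650 in set 2. On the deposited scale the Chd1-null sum was thus 0.698 of the control sum in set 1 and 0.709 in set 2. As a share of all loci in its table, the sum was 1.35% and 1.18% in set 1 and 0.911% and 0.898% in set 2 (control, then Chd1-null).

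Hsf1 had the lowest level of the members and lay near the middle of all tested genes. It measured 8.64 FPKM (control) and 5.45 (Chd1-null) in set 1, against 13.3 and 9.37 in set 2. The Chd1-null value was lower within each set. On the deposited scale, which the tables may not share, control 1 was below Chd1-null 2. The log2 ratios were -0.66 and -0.51, a mean of -0.58 with a limma SE of 0.28, and Hsf1 did not pass over all genes (adjusted p = 0.148, unadjusted p = 0.0373). Leaving out 1 library moved this value widely: the log2 change was -0.20 without Chd1-null 1, -0.27 without control 2, -0.89 without control 1 and -0.97 without Chd1-null 2. These fits have no block, so they also carry the difference in level between the sets, which the 2 within-set ratios do not. Its log2 ratio minus the median of the 500 genes nearest in level was -0.12 in set 1 (percentile 39.0 of those genes) and -0.15 in set 2 (percentile 33.8). The genes whose pair of log2 ratios was nearest to that of Hsf1, among genes with a mean of at least 5 FPKM, were Heatr2, Pip5k1a and Ibtk. Their Euclidean distances over the 4 libraries, taken as 2 ratios, were 0.0040, 0.0064 and 0.0064 log2 units. This is a description only, since many genes share such a pair of ratios.

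Hsp90aa1 and Hsp90ab1 encode the alpha and beta forms of cytosolic HSP90; the alpha gene is classed as the more stress-inducible and the beta gene as the more constitutive. Hsp90aa1 stood at 2643 FPKM (control) and 1631 (Chd1-null) in set 1, against 2234 and 1345 in set 2. The Chd1-null values were 61.7% and 60.2% of their own control. On the deposited scale, which the tables may not share, both lay below both control values, as in 52.6% of tested genes. Hsp90aa1 fell by 0.71 on the log2 scale (limma SE 0.21, adjusted p = 0.0165), with log2 ratios of -0.70 and -0.73 (SD 0.025, n = 2).

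Hsp90ab1 stood at 838.8 FPKM (control) and 478.0 (Chd1-null) in set 1, against 602.8 and 391.9 in set 2. The Chd1-null values were 57.0% and 65.0% of control. On the deposited scale, which the tables may not share, both control values lay above both Chd1-null values, as in 52.6% of tested genes. Hsp90ab1 fell by 0.72 (limma SE 0.18, adjusted p = 0.0037), with log2 ratios of -0.81 and -0.62. The 2 forms changed alike in size: Hsp90aa1 over Hsp90ab1 was 3.15 (control) and 3.41 (Chd1-null) in set 1, against 3.71 and 3.43 in set 2, so the ratio went up in set 1 and down in set 2. The 2 genes are near relatives, and both have processed pseudogene copies; how reads that fit several copies were assigned is not given in the sources used here, so the split between them is uncertain.

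Relative to the 500 genes nearest in level, Hsp90aa1 and Hsp90ab1 were among the lowest of the members in set 1. Hsp90aa1 minus the median of its 500 neighbours came to -0.49 in set 1 (percentile 5.4) and to -0.33 in set 2 (percentile 14.8). For Hsp90ab1 this distance was -0.60 (percentile 2.2) and -0.22 (percentile 23.8). Hspa8, Hsp90aa1, Hsp90ab1 and Hspb1 are all near the top of the level range in set 1, so their neighbours are largely the same genes. By mean level Hspa8 and Hsp90aa1 lie at percentiles 99.95 and 99.81 of all tested genes. Most of their 500 neighbours are therefore lower in level, and the match in level is loose for them. With each library divided by its total, so that a change shared by all genes cancels, neither HSP90 gene passed (log2 change -0.32 for each, limma adjusted p = 0.762 for Hsp90aa1 and 0.564 for Hsp90ab1).

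Hspa8 encodes the constitutive cytosolic HSP70, HSC70, and had the highest level of the members. It measured 3454 FPKM (control) and 2660 (Chd1-null) in set 1, against 2826 and 2282 in set 2. On the deposited scale, which the tables may not share, both control values lay above both Chd1-null values, as in 52.6% of tested genes. The distance between Chd1-null 1 and control 2 was small. Its log2 change was -0.34 (limma SE 0.22, adjusted p = 0.283; 95% interval -0.78 to 0.097). Hspa8 has processed pseudogenes and carries small nucleolar RNA genes of the Snord14 family within its locus, so its value can include reads of other transcripts.

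In each library Hspa8 can be set against Hsp90aa1, which takes out the scaling of the libraries. Hspa8 over Hsp90aa1 went from 1.31 to 1.63 in set 1, and in set 2 from 1.26 to 1.70, or up by 0.32 and 0.42 on the log2 scale. Hspa8 over Hspa4 hardly moved, from 16.2 to 16.6 and from 15.8 to 15.9. Hspa8 made up 43.8% (control) and 48.4% (Chd1-null) of the members' sum in set 1, against 43.1% and 49.1% in set 2. These ratios were chosen after the values were seen and were not tested; with 2 pairs an exact sign-flip test cannot go below p = 0.5.

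Hspa4 and Hsph1 encode HSP110 proteins, distant relatives of HSP70 that act as its nucleotide exchange factors. Hspa4 measured 214 FPKM (control) and 160 (Chd1-null) in set 1, against 179 and 144 in set 2. It stood at 74.7% and 80.2% of control, and its log2 change of -0.37 (limma SE 0.17) did not pass (adjusted p = 0.130). Its distance from the median of its neighbours in level was -0.23 in set 1 and 0.049 in set 2.

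Hsph1 had the largest mean change among the members. In set 2 alone Hspb1, Hsp90aa1 and Hsp90ab1 had lower log2 ratios (-0.77, -0.73 and -0.62). Hsph1 measured 85.2 FPKM (control) and 30.1 (Chd1-null) in set 1, against 45.7 and 31.9 in set 2. On the deposited scale the Chd1-null libraries lay close together, while the 2 control libraries lay apart, control 1 being the high one. This sets levels across 2 tables that may have been scaled separately. The Chd1-null value was 35.4% of control in set 1 and 69.9% in set 2. Hsph1 fell by 1.01 on the log2 scale (limma SE 0.18, adjusted p = 1.7e-05), from log2 ratios of -1.50 and -0.52 (SD 0.69, n = 2). Set 1 carries much of this mean: without set 1 the log2 ratio was -0.52. Without control 1 the log2 change was -0.56, and without control 2 it was -1.45. The fits that leave out a library have no block, and Hsph1 passed in none of the 4 (limma adjusted p from 0.192 to 0.808). Its distance from the median of its 500 neighbours in level was -1.25 in set 1, at percentile 0.40, and -0.12 in set 2, at percentile 29.8. With libraries divided by their totals Hsph1 alone of the members passed (log2 change -0.61, limma adjusted p = 0.0471). Hspa4 over Hsph1 went from 2.51 to 5.30 in set 1, and in set 2 from 3.92 to 4.49. The difference between the sets was not tested, because each has 1 pair.

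**Figure D2:**
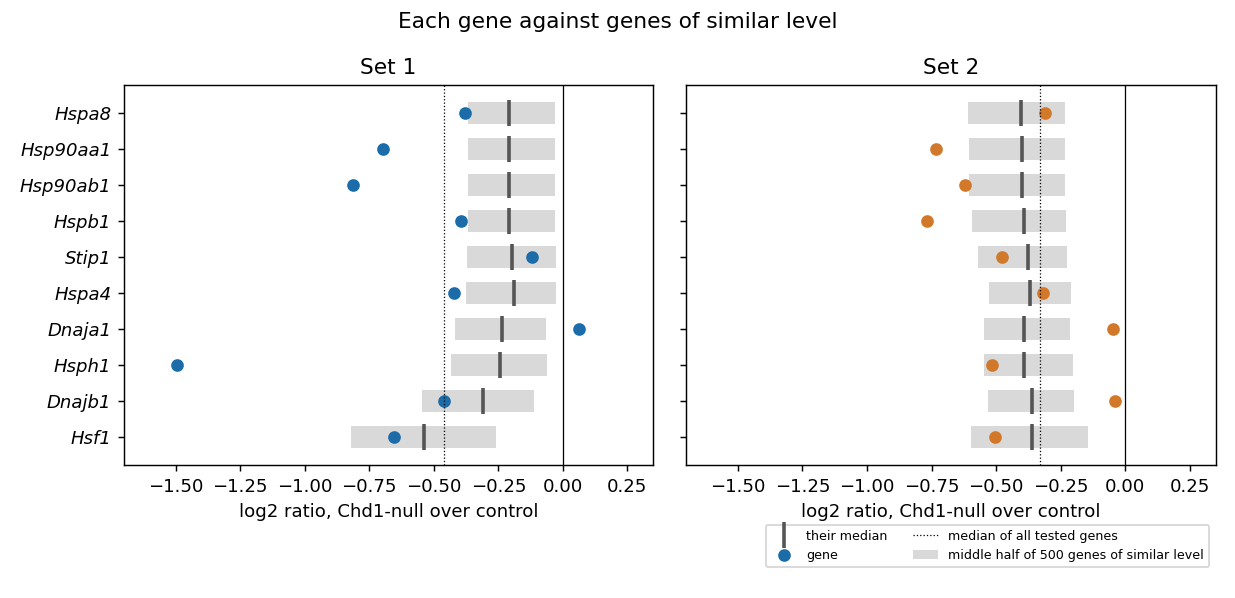
Log2 ratio of Chd1-null over control (horizontal axis) of each gene in set 1 (left) and set 2 (right), as coloured points; grey bars span the quartiles of the 500 genes nearest in level, dark ticks their median, and the dotted line the median of all tested genes. Hsph1 lies far left of its bar in set 1 and inside it in set 2. Hsp90aa1, Hsp90ab1 and Hspb1 lie left of their bars in both sets, and Dnaja1 lies right of its bar in both.

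The letters that HSF1 is known to bind were looked for in promoter windows, since the factor and its classical target genes are both in the list. RefSeq windows of build GRCm38.p6, from 250 bases before to 50 after a start, were at hand for 6 of the 10 members (Hsph1, Hspa4, Dnaja1, Dnajb1, Hspb1 and Stip1). The expression values were made on the build mm9, so these coordinates belong to the windows only. Motifs were GAANNTTC and TTCNNGAA, each its own reverse complement, and the 3-unit forms GAANNTTCNNGAA and TTCNNGAANNTTC, which contain both shorter ones. Windows of 3 members held any of them, and these are shown 5′ to 3′ along the gene's strand, with the motif letters in capitals.
Hsph1, chr5:149636287-149636586, minus strand: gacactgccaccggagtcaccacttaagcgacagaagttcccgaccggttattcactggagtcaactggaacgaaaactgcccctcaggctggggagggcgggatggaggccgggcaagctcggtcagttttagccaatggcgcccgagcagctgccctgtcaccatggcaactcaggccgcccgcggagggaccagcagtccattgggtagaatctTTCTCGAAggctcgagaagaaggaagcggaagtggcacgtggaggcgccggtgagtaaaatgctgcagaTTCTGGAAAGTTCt
Hspb1, chr5:135887669-135887968, plus strand: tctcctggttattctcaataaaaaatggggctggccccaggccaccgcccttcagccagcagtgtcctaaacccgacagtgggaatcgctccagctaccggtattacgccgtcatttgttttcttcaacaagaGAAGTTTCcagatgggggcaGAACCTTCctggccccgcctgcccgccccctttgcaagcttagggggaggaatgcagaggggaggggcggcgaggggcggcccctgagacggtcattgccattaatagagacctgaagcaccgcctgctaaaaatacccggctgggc
Dnaja1, chr4:40722218-40722517, plus strand: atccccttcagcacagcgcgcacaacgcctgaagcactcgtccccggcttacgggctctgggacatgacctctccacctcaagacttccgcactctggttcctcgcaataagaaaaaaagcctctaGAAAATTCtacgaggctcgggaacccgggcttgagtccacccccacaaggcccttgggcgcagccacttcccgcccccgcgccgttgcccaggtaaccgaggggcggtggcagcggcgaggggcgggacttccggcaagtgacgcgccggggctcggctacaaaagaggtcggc

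Counted from a start site numbered 0, the Hsph1 window holds TTCTCGAA at -33 to -26 and the 3-unit TTCTGGAAAGTTC at 36 to 48. A second Hsph1 window, which overlaps it, holds the same letters. The Hspb1 window holds GAAGTTTC at -117 to -110 and GAACCTTC at -97 to -90, and Dnaja1 holds GAAAATTC at -124 to -117 in the most upstream of its 3 windows. A 3-unit form occurred in 0.603% of all 32851 windows, GAANNTTC in 7.86% and TTCNNGAA in 8.52%. A match is a string of letters and not a measured binding site, and a window without one says nothing of the factor.

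The same letters were then set beside the expression values of all genes. Of 7780 tested genes with a window, 47 held a 3-unit form. Their median log2 ratios were -0.41 and -0.35 (set 1, then set 2), against -0.45 and -0.33 for all 7780. Of the 47, 5 fell (10.6%), against 9.40% of all 7780, and 0 rose. Genes with GAANNTTC (526 genes, medians -0.41 and -0.34) and with TTCNNGAA (613 genes, medians -0.40 and -0.33) lay as near to all genes. Hsph1, at -1.50 and -0.52, was therefore well below the median of the 47 genes in set 1. These medians are a description, and genes that share the letters were not tested as a group.

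Dnaja1 and Dnajb1 encode J proteins, which hand clients to HSP70 and start its ATP cycle; Dnajb1 is the more strongly heat-inducible of the pair. Dnaja1 measured 52.5 FPKM (control) and 54.9 (Chd1-null) in set 1, against 43.6 and 42.2 in set 2. The groups overlapped, and Dnaja1 was the member that went opposite ways in the sets (24.8% of all tested genes did), at 105% and 96.8% of control. Its log2 change was 0.0085 (limma SE 0.18, adjusted p = 0.976; 95% interval -0.35 to 0.37). Against neighbours in level, most of which had lower values in Chd1-null cells, it lay higher by 0.30 in set 1 (percentile 88.0) and by 0.35 in set 2 (percentile 91.2). Relative to each set's median it did not pass (relative log2 change 0.40, limma SE 0.22, adjusted p = 0.841; unadjusted p = 0.0694). Exons of Dnaja1 overlap those of Smu1 on the opposite strand in GENCODE vM21. The libraries were strand-specific, but whether the counting used strand is not given in the sources used here.

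Dnajb1 measured 28.0 FPKM (control) and 20.3 (Chd1-null) in set 1, against 29.5 and 28.7 in set 2. On the deposited scale the Chd1-null library of set 1 was the low one. The 2 tables may have been scaled separately, so which library departs cannot be told. Dnajb1 stood at 72.5% of control in set 1 and 97.4% in set 2, with log2 ratios of -0.46 and -0.038. Its log2 change of -0.25 (limma SE 0.20, adjusted p = 0.379) did not pass. In fits without 1 library, which also lack the block, it was -0.0012 without Chd1-null 1 and -0.50 without Chd1-null 2. Dnaja1 over Dnajb1 went from 1.87 to 2.70 in set 1 and from 1.48 to 1.47 in set 2.

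Hspb1 encodes a small heat shock protein that holds unfolded proteins in large oligomers without using ATP. It measured 333 FPKM (control) and 253 (Chd1-null) in set 1, against 321 and 189 in set 2. Within each set the Chd1-null value was lower, at 76.1% and 58.8% of control. Hspb1 fell by 0.58 (limma SE 0.17, adjusted p = 0.0160), from log2 ratios of -0.39 and -0.77. With a mean of at least 5 FPKM required, which leaves 6861 genes, it missed the threshold (adjusted p = 0.0656). Its distance from the neighbours' median was -0.19 in set 1 (percentile 22.4) and -0.37 in set 2 (percentile 11.2), and relative to the set medians it had opposite signs (0.066 and -0.44).

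Stip1 encodes HOP, the adaptor that holds HSP70 and HSP90 together while a client passes between them. It measured 226 FPKM (control) and 209 (Chd1-null) in set 1, against 259 and 186 in set 2. Stip1 stood at 92.1% and 71.8% of control, so most of its difference came from set 2, and its log2 change of -0.30 (limma SE 0.17, adjusted p = 0.220) did not pass. Its distance from the neighbours' median was 0.077 in set 1 and -0.10 in set 2.

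**Figure D3:**
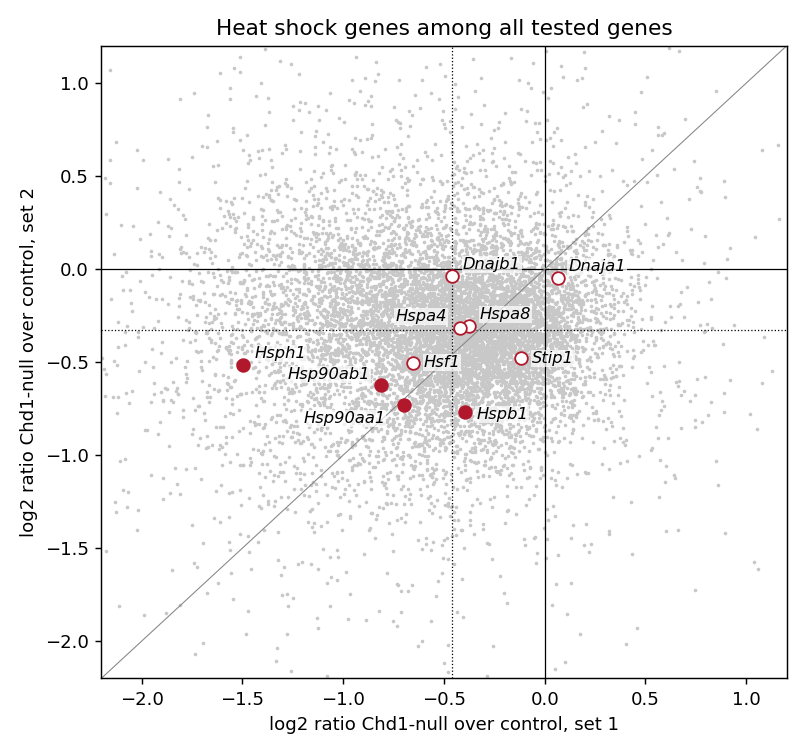
Log2 ratio of Chd1-null over control in set 1 (horizontal) and set 2 (vertical) for 10108 tested genes (grey; 153 lie outside the axes) and the 10 heat shock genes (red; filled where limma called them lower). Dotted lines mark the medians of all genes and the diagonal marks equal ratios; the filled points are Hsph1, Hsp90ab1, Hsp90aa1 and Hspb1, and Hsph1 lies far off the diagonal.

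The relative comparison took each set's median log2 ratio out before the fit. In it 0 of the 10 members passed limma, and 0.214% of tested genes were called lower and 0.146% higher. At an unadjusted p under 0.05 there was 1 member, Hsph1, against 6.29% of genes (relative log2 change -0.61, limma SE 0.22, unadjusted p = 0.0060, adjusted p = 0.410). Of the 4 genes that fell on the deposited scale, 3 lay below the median of all genes in both sets: Hsph1 (-1.03 and -0.19), Hsp90aa1 (-0.24 and -0.40) and Hsp90ab1 (-0.35 and -0.29). The 4 had been picked by their low values in the same data, which favours such a place. The count is a description and no separate result. Compared with genes of similar level instead, 5 members lay below their neighbours' median in both sets, against 26.6% of tested genes, and 1, Dnaja1, lay above it in both, against 26.5%. The 5 were Hsf1, Hsph1, Hsp90aa1, Hsp90ab1 and Hspb1. The members' median distance from their neighbours was -0.18 in set 1 and -0.11 in set 2.

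The wider heat shock network was taken from lists, with calls on the deposited scale; in the relative comparison 0 genes of any of these lists passed limma in either direction, and Hsf2 (-0.29), Ep300 (-0.39), Bag6 (-0.27) and Sugt1 (-0.13), called below, had relative adjusted p of 0.998, 0.984, 0.998 and 0.998. Among HSF family genes and regulators of HSF1, 8 of 9 were in both tables and 7 were tested. Of these 2 fell and 0 rose, against 9.80% and 0.0682% of all tested genes. Hsf2, the partner of HSF1 in stem cells and development, fell by 0.69 (limma SE 0.21, adjusted p = 0.0205), 27.5 to 15.8 FPKM in set 1, 29.3 to 19.6 in set 2. Hsf2 was thus above Hsf1 in FPKM in all 4 libraries. The second was the acetyltransferase gene Ep300, which rests on set 1 alone: log2 ratios -1.64 and 0.068, log2 change -0.78, adjusted p = 0.0494. It was named after its values were seen. Hdac6 (log2 change -0.42), a deacetylase that senses ubiquitinated proteins, and Sirt1 (-0.38), a deacetylase of HSF1, were lower in both sets without passing.

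Among 14 other genes known to be induced by HSF1, 13 were tested. In limma over all genes 0 fell and 0 rose, against 9.80% and 0.0682% of tested genes. Lower in both sets were 7, against 72.4% of tested genes, and higher in both 1, against 2.81%. The inducible HSP70 genes Hspa1a and Hspa1b, the textbook markers of a heat shock response, were at the bottom of the measured range and are named outside the rule. Hspa1a measured 1.42 FPKM (control) and 0.929 (Chd1-null) in set 1, against 1.10 and 1.70 in set 2. Hspa1b measured 1.24 and 1.68 in set 1 and 1.93 and 2.23 in set 2, with a log2 change of 0.30 (limma SE 0.57, adjusted p = 0.700). Near-identical copies make the split between these genes uncertain, and both groups overlap. Of the genes the rule names, the small heat shock protein gene Cryab had the largest change at low level (log2 change -1.14, limma SE 0.65, adjusted p = 0.219). Hspd1, the mitochondrial chaperonin, and the polyubiquitin gene Ubb had log2 changes of -0.43 (adjusted p = 0.0966) and -0.39 (adjusted p = 0.141). The list's median log2 change of -0.25 lay above that of all genes, -0.41, while the 10 members had a median of -0.47.

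All 18 HSP70 cofactors and J proteins of a list were tested. Of these 1 fell, against 9.80% of all tested genes, 0 rose, and the median log2 change was -0.24. Bag6, which guards tail-anchored and misrouted proteins, fell by 0.67 (limma SE 0.19, adjusted p = 0.0140), 44.6 to 25.7 FPKM in set 1, 39.8 to 27.2 in set 2. Dnajb14 (log2 change -1.39, SE 0.64) and the testis-enriched HSP70 gene Hspa2 (-0.76, SE 0.44) were low and did not pass. Of 14 tested HSP90 cochaperones 1 fell and 0 rose, with a median of -0.32. The one was Sugt1, a client adaptor of HSP90 (by 0.53, limma SE 0.17, adjusted p = 0.0296), with log2 ratios of -0.10 and -0.96, so mostly in set 2. The immunophilin gene Fkbp5 (-0.59, adjusted p = 0.0685) and the myosin chaperone gene Unc45a (-0.53, adjusted p = 0.0864) missed the threshold.

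Other chaperone systems are given for comparison, without matching for level. Of the 8 subunits of the CCT chaperonin, which folds actin and tubulin, and of 14 chaperones of the endoplasmic reticulum, 0 fell and 0 rose in limma. Of all tested genes 9.80% were called lower. The median log2 changes of the 2 lists were both -0.24. Lower in both sets were 6 of 8 and 9 of 14, against 72.4% of all tested genes. The CCT gene with the largest change, Cct6a, went 491 to 397 FPKM in set 1, 453 to 340 in set 2 (log2 change -0.36, adjusted p = 0.152). In the endoplasmic reticulum the J protein gene Dnajc3 had the largest (-0.53, adjusted p = 0.217), and Hyou1, its HSP110 counterpart, had -0.46 (adjusted p = 0.0878). On the deposited scale the stem cell markers had more genes called lower (8 of 10) and a lower median log2 change (-0.65) than the members (4 of 10 and -0.47). In the relative comparison 0 genes of either list passed. The markers Esrrb, Nanog and Utf1 came nearest (limma adjusted p = 0.0580, 0.0970 and 0.149), while the other markers had 0.998. Among the members Hsph1 had the lowest, 0.410. Whether the cytosolic heat shock genes differ from any of these lists was not tested.

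**Figure D4:**
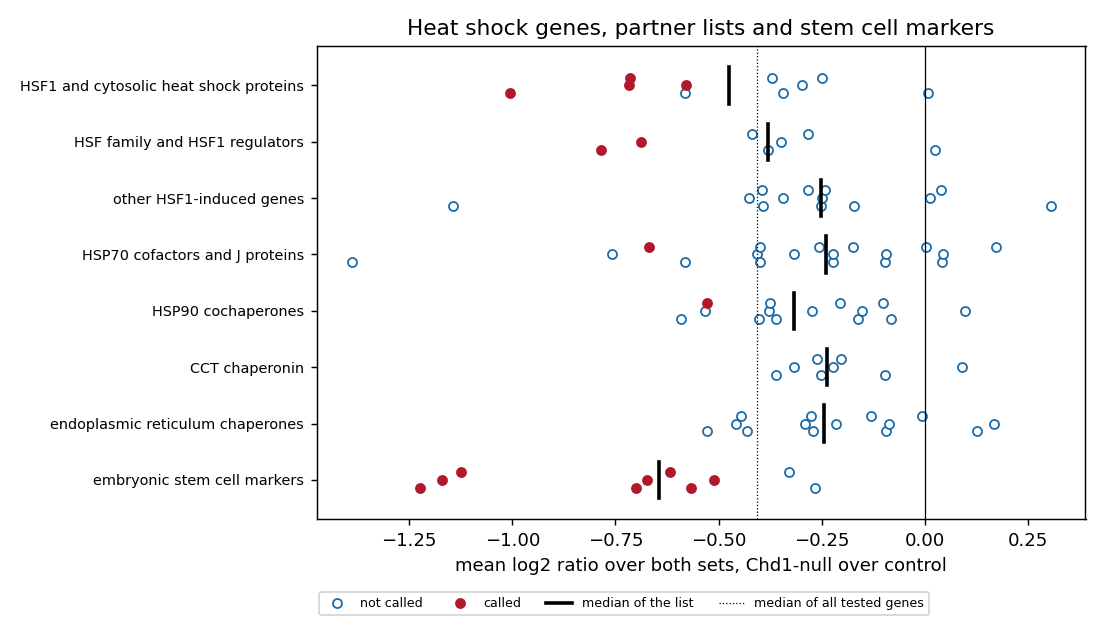
Mean log2 ratio of Chd1-null over control over both sets (horizontal axis) of each tested gene of 8 lists; filled red points passed limma at an adjusted p under 0.05, black bars are list medians, and the dotted line is the median of all tested genes at -0.41. The top list has 4 filled points and a median of -0.47, the 6 lists under it have 0 to 2 and medians from -0.38 to -0.24, and the stem cell markers at the bottom have 8 and a median of -0.65. The lists are not matched for level.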

How the data were processed

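The authors deposited 1 table per set, with values taken here as FPKM and a ratio of the 2 libraries that matched their quotient (largest relative difference 4.97e-06). The unit was inferred from the values and the tools, since no header states it. Per the submitters' processing notes, these were Cufflinks 2.2.0, Cuffdiff, TopHat and TopHat2 2.0.10, with build mm9. The role of each tool and of the ERCC transcripts in the scaling is not given in the sources used here. The lowest listed value was 0.100. Read depth is unknown, so no counting interval is given.

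Genes were joined by symbol, leaving out loci without a symbol, merged loci and repeated symbols. For log2(FPKM + 0.1), a scale that understates changes of low genes, limma 3.58.1 in R 4.3.3 was fitted to all 10261 genes with a mean of at least 1 FPKM. The test was two-sided, used a variance trend on level, and called genes at a Benjamini-Hochberg adjusted p under 0.05. The block was the set, since the sets come in separate tables; deviations of same-set libraries correlated across genes (r = 0.483). The fit has 1 residual degree of freedom and a prior of Inf, so a gene's own spread does not enter its p. The fit was tried on simulated data in which all genes had a common spread, so it could not show false calls that come from sharing the spread. Intervals are 95% from limma's SE. Named genes are all members, Chd1, up to 3 genes per list (those of largest mean change whose sign the sets share) and the 3 nearest to Hsf1. The members and lists were chosen with earlier results of these data known. Alternatives covered pseudocount, filter, prior variance, block, scaling, level trend, neighbour number and left-out sets or libraries.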

Additional observations from a re-analysis of the deposited data

Results flagged for a closer look

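Dnaja1 moved opposite ways in the sets: set 1 had a log2 ratio of 0.064 and set 2 one of -0.047, with 1 pair each. The difference between the sets was not tested.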

How the results depend on the processing

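The 4 members called lower were the same 4 with a pseudocount of 1 or 0.01 and with no filter; with the level trend removed all 4 passed and Hspa8 and Hspa4 passed as well. Requiring a mean of 5 FPKM or more, 225 genes fell and 2 rose (3 and 2 in the relative comparison). With one common prior variance 0 genes and 0 members passed in limma, in both comparisons, and likewise with no replicate block, where 1043 genes (absolute) and 148 (relative) had an unadjusted p under 0.05 (1718 and 614 with the common variance). Divided by library totals 37 genes fell, 50 rose and 1 member fell, Hsph1. With the level trend removed 1788 genes fell and 18 rose in the absolute comparison, and 0 fell and 0 rose in the relative one (711 at an unadjusted p under 0.05). With a pseudocount of 1, 4 genes rose.

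Signs turned for small values: with library totals Hspa8 (0.056), Hspa4 (0.030), Dnajb1 (0.15) and Stip1 (0.10), and with the level trend removed Dnaja1 (-0.072). In the relative comparison Hspa4 turned with a pseudocount of 1 (-0.018) and a mean of at least 5 FPKM (-0.010), and with the level trend removed Hspa8 (-0.037), Hspa4 (-0.089) and Stip1 (-0.012) did.

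Leaving out 1 library, which also drops the block and assumes that a lone sample varies like the other group, gave 0 genes and 0 members in the absolute comparison and 0 lower and 0 to 1 higher genes in the relative one. Signs turned for Dnaja1 without control 2 (-0.12) and without Chd1-null 1 (-0.18). In the relative comparison they turned without control 1 for Stip1 (-0.033); without control 2 for Hsf1 (0.16), Hspa8 (-0.060) and Hspa4 (-0.070); without Chd1-null 1 for Hsf1 (0.17), Hspa8 (-0.091), Hspa4 (-0.085) and Stip1 (-0.019); and without Chd1-null 2 for Dnajb1 (-0.071) and Hspb1 (0.059). Set 1 alone and set 2 alone also differed in relative sign for Dnajb1, Hspb1 and Stip1. The range with a library or set left out was -0.18 to 0.20 for Dnaja1, -0.97 to -0.20 for Hsf1, -0.50 to -0.0012 for Dnajb1 and -0.48 to -0.12 for Stip1. In the relative comparison it was -0.54 to 0.17 for Hsf1, -0.091 to 0.20 for Hspa8, -0.085 to 0.14 for Hspa4, -0.071 to 0.36 for Dnajb1, -0.44 to 0.066 for Hspb1 and -0.15 to 0.34 for Stip1. With 200 or 1000 neighbours the members' median distances kept their sign. The causes of these changes were not tested. With a set left out no test is possible, so no count is given.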
